A study of Mus musculus with 22 samples.

Results

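The loci of 8 genes that mark mesothelial cells (Msln, Upk3b, Upk1b, Wt1, Lrrn4, Krt19, Krt8 and Krt18) were examined in the open chromatin of labelled adipocyte nuclei. A locus was the gene span on GRCm38 with 20 kb on each side, and all 8 of the 21938 protein-coding genes were found. The loci overlapped 32 of 104657 union regions, which are the merged peaks of all libraries, and held between 15 and 29 peaks in each library. They took 0.0419% of all peaks. Krt8 and Krt18 are neighbours and their loci share 2 of the 32 regions.

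ATAC-seq reads out open chromatin through the insertions of a transposase, and it was performed on adipocyte nuclei of epididymal fat from male AdipoERCre x NuTRAP mice, on what the labels spell a C576BL6 background. The libraries of a group are labelled as biological replicates. In these mice a tamoxifen-inducible Cre under the adiponectin promoter turns on a reporter that tags nuclei with biotin, and the tagged nuclei were pulled down from frozen tissue on streptavidin beads. All animals, controls included, received tamoxifen 2 times at 4 to 5 weeks of age, with 2 weeks of washout. The promoter limits the label to cells that express adiponectin when tamoxifen is given and to those that descend from them. C (n = 3, 18 weeks old) was fed low-fat chow, and H (n = 3, 18 weeks old) was fed a high-fat diet for 12 weeks. HC (n = 3) was fed the high-fat diet for 12 weeks and chow for the last 8 weeks, and CC_s (n = 3) is its control at 26 weeks of age. HH (n = 3) was fed the high-fat diet for 25 weeks, and CC_l (n = 2) is its control at 31 weeks. HHC (n = 3) had 25 weeks of high-fat diet and then 8 weeks of chow, and CCC (n = 2) is its control at 39 weeks. The chow of those 8 weeks was another product than the low-fat chow and was given to CC_s and CCC as well. Below, C, CC_s, CC_l and CCC are the control libraries (n = 10), H and HH the obese libraries (n = 6), and HC and HHC the weight-loss libraries (n = 6).

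The mesothelium is the sheet of flattened cells that covers the abdominal organs and cavity wall, the epididymal fat pad among them. Its cells carry the surface glycoprotein mesothelin and uroplakins on their membranes, the transcription factor Wt1, which also acts in the developing gonad and kidney, and keratin filaments of simple epithelia. These genes are not known as adipocyte genes, and their loci show how the labelled nuclei look at genes of a cell type that lies directly on the tissue.

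The libraries held 40528 to 60523 peaks covering 128 to 299 Mb. Sequencing depth is unknown, since no read numbers come with the peaks. The median peak maximum was 2.25 times the lowest maximum in HHC 3 and 2.43 times in HC 3, against 3.67 to 8.92 times in the other 20 libraries. These 2 libraries stood apart. HC 3 alone held 35.3% and HHC 3 alone 33.8% of the 48481 regions seen in a single library, and the results below that rest on them are named. The labelled cell type was checked by its markers, and all 12 adipocyte genes on the list used here, such as Adipoq, Plin1 and Pparg, had a promoter peak in all 22 libraries.

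A member promoter, the window of 2000 bp on each side of an annotated transcription start, held a peak in 56 of 176 combinations of member and library (31.8%). The SD between libraries was 19.6 percentage points (n = 22). Over all protein-coding genes the share was 60.2%, and over the adipocyte list it was 100%. Without HC 3 and HHC 3 the members' share was 29.4% and that of all genes 60.4%. Upk1b and Krt18 had no promoter peak in any of the 22 libraries, as had 22.7% of all protein-coding genes. No member had one in all 22 libraries, whereas 43.6% of all genes did.

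**Figure D1:**
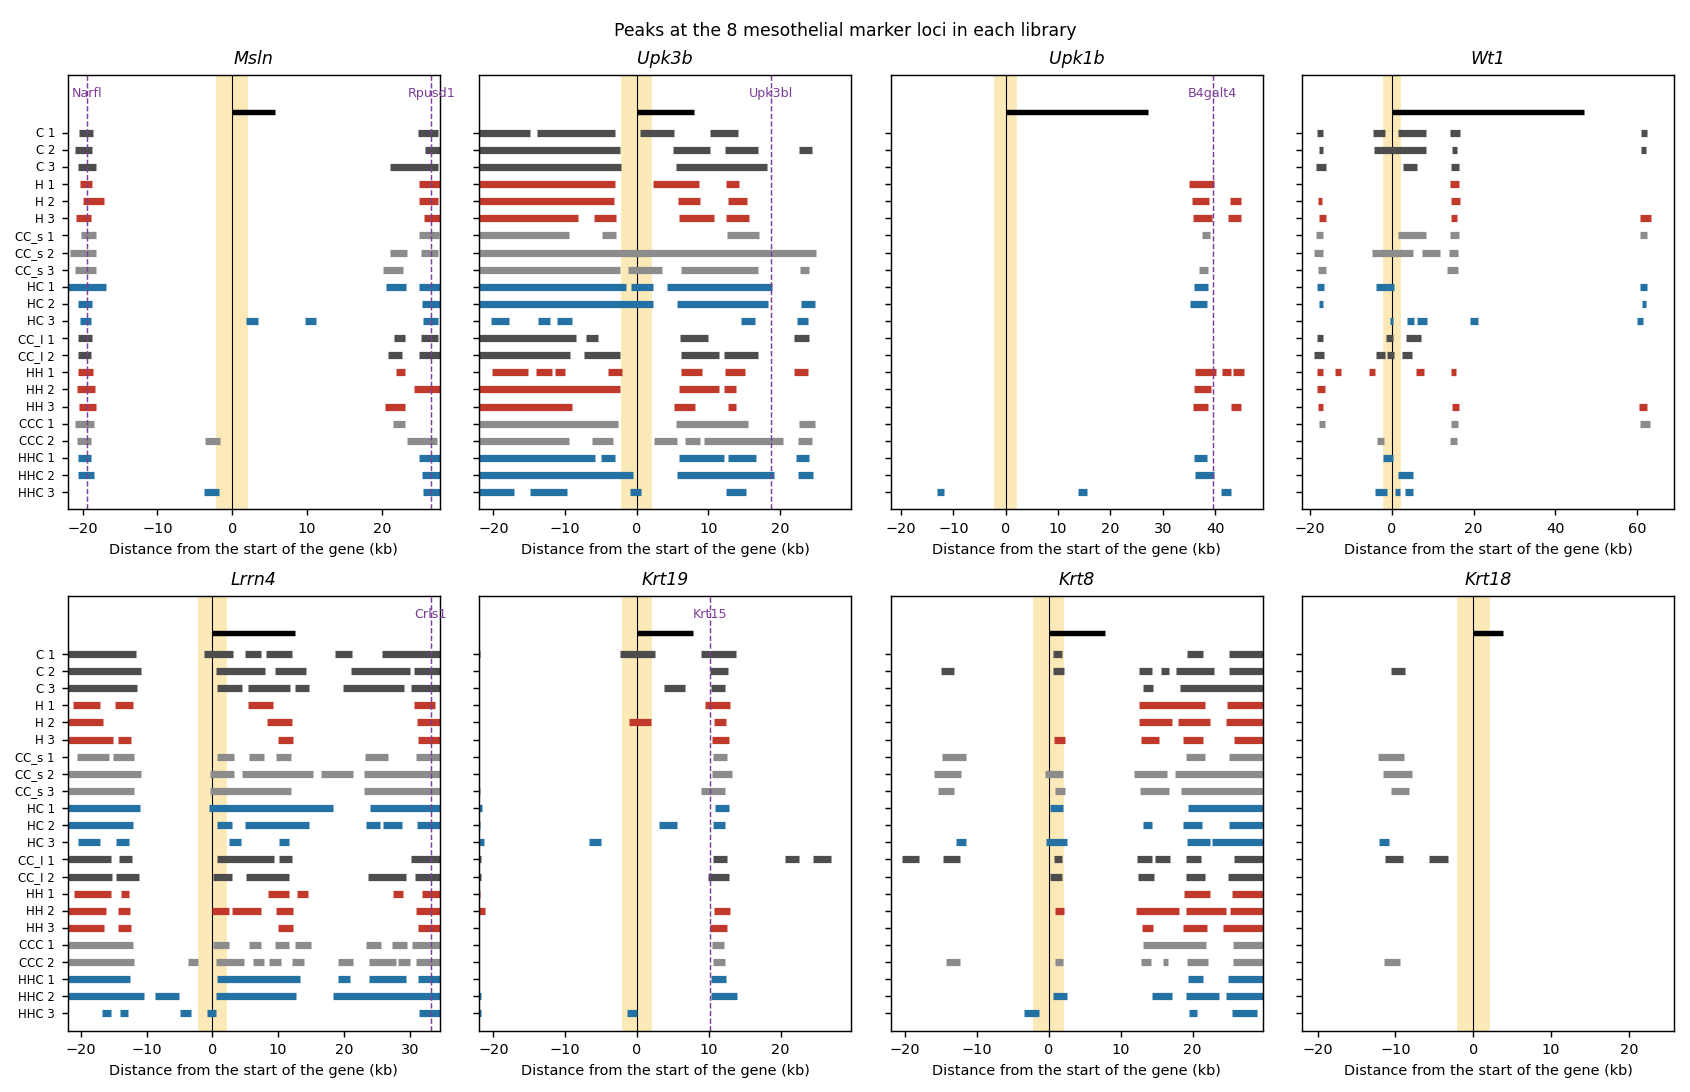
Peaks at the 8 loci, with distance from the start of the gene in kb on the horizontal axis and the 22 libraries on the vertical axis (black and grey, control; red, obese; blue, weight loss). Coloured bars are peaks, clipped at the panel edge; the black bar is the gene, the yellow band the 2000 bp on each side of its first start, and dashed lines mark starts of other genes. The bands of Upk1b and Krt18 are empty in all 22 libraries, and most bars lie away from the bands.

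Promoter sequences were taken from RefSeq (GRCm38.p6), whose table held 4 of the 8 members, Upk3b, Lrrn4, Krt8 and Krt18. Each covers 250 bases before and 50 after the start. Lrrn4 is shown as the member whose 2000 bp window most often held a peak, and Krt8 and Krt18 as a pair of partner keratins of which Krt18 was never open. Capitals mark matches on either strand to TATAAA (the TATA box), GGGCGG (the GC box), TGANTCA (the AP-1 site), TTGCNNAA (a C/EBP site) or GGAATG (a TEAD site).
Lrrn4 promoter, chr2:132880813-132881112, minus strand: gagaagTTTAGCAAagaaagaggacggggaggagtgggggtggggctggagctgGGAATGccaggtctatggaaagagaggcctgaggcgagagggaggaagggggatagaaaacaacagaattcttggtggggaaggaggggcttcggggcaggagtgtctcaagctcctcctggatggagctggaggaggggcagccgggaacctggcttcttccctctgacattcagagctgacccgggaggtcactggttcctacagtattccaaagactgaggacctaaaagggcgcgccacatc
Krt8 promoter, chr15:102004293-102004592, minus strand: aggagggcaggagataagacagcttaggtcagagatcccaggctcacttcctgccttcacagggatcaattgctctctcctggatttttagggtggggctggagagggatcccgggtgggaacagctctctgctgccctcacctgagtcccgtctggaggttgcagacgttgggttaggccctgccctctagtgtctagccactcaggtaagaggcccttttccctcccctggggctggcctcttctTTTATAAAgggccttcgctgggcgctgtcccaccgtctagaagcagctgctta
Krt18 promoter, chr15:102027966-102028265, plus strand: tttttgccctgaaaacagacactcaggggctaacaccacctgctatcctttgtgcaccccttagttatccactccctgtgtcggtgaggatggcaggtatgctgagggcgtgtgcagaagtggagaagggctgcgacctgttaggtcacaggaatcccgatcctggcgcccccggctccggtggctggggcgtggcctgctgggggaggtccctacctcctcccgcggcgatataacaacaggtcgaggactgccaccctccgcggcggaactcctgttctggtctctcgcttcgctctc
The Krt8 window holds 2 overlapping TATA matches on opposite strands, at positions -3 and -1 from its start, and Lrrn4 holds 1 C/EBP and 1 TEAD match. Krt18 holds no match to these letters. Upk3b (chr5:136038246-136038545, plus strand) holds 1 TEAD match. Over 32851 RefSeq promoters of this length, 13.6% held TATAAA, 35.7% GGGCGG, 7.81% TGANTCA, 10.8% TTGCNNAA and 14.7% GGAATG.

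The CpG ratio, the number of CG dinucleotides over that expected from base composition, was 0.08 for Upk3b, 0.24 for Krt8, 0.31 for Lrrn4 and 0.60 for Krt18. Of 16522 protein-coding genes with such a sequence, 8.24% had a lower ratio than Upk3b and 50.4% a lower ratio than Krt18. Promoters with a ratio of 0.6 or more had a peak in at least 11 libraries in 87.3% of genes, and promoters under 0.6 in 36.7%. Upk3b, Krt8 and Lrrn4 thus fell in the class that was less often open. Krt18, with 17 CG dinucleotides in its 300 bases, had a peak in 0 libraries, which 4.07% of the CpG-rich class shared.

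Msln, which encodes mesothelin, had a promoter peak in 3 of 22 libraries (HC 3, CCC 2 and HHC 3). None of the 3 peaks covered a start or lay within 500 bp of one. Their maxima were 0.647, 0.515 and 0.833 times the median peak maximum of their library. Without HC 3 and HHC 3 only CCC 2 was left. The region of highest mean signal in this window was chr17:25755954-25758179, upstream of the gene on its minus strand. The regular peaks of the Msln locus were elsewhere. Of its 51 peaks, 40 lay at the promoter of another protein-coding gene and at no Msln start, among them Narfl, an iron-sulfur assembly factor whose start is 19.4 kb upstream, and Rpusd1, of the pseudouridine synthase family, 26.6 kb downstream.

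Upk1b encodes a tetraspanin of the uroplakin plaques. Its locus (chr16:38753184-38820328) held 20 peaks over all libraries, none at the Upk1b start, and 9 libraries had no peak at all. The Upk1b gene body held a peak in 1 library, HHC 3. Of these 20 peaks, 18 lay at promoters of B4galt4, a galactosyltransferase gene that lies beyond the 3' end of Upk1b and is read towards it.

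Upk3b, the uroplakin most often used to mark mesothelium, had a promoter peak in 7 of 22 libraries. The total signal was 33531 in C 1, 2094046 in CC_s 2, 27956 in CC_s 3, 1155889 in HC 1, 733567 in HC 2, 912195 in HHC 2 and 10025 in HHC 3. These values fall into separate ranges, and the high ones come from broad blocks. In CC_s 2, HC 1, HC 2 and HHC 2 the peak that reached the window was 69.6, 44.5, 35.9 and 35.2 kb long, with its summit -22.3, -18.3, -23.4 and -22.2 kb from the Upk3b start, within Dtx2, a ubiquitin ligase gene. In C 1, CC_s 3 and HHC 3 it was 4.76, 4.74 and 1.57 kb long. HC 1 had a second peak of 3.12 kb with its summit at -0.109 kb from the start. None of the 6 obese libraries had a peak in this window. The region that holds it, chr5:135980074-136063515, had a peak in all 22 libraries and also holds the promoters of Dtx2, Upk3bl and Zp3. Peaks covered 54.4% of the Upk3b locus on average, more than at 94.1% of all genes.

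Wt1, the transcription factor, had a promoter peak in 14 of 22 libraries. The maximum was 37, 38 and 23 in C, 19 and 44 in CC_s 1 and CC_s 2, 26 and 37 in HC 1 and HC 3, and 29 and 35 in CC_l. It was 13 in HH 1, 20 in CCC 2, and 16, 20 and 25 in HHC. H 1, H 2, H 3, CC_s 3, HC 2, HH 2, HH 3 and CCC 1 had no peak there. By state, 8 of 10 control, 1 of 6 obese and 5 of 6 weight-loss libraries had one. All but those of HC 3 and HHC 3 were low peaks, at 0.215 to 0.690 times the library's median maximum, whereas HC 3 and HHC 3 reached 2.18 and 1.39 times. The region lay at chr2:105120963-105138358 over the start and first part of the gene, and it also spans the start of the antisense transcript Wt1os. Since the assay does not resolve strands, signal there cannot be told apart between Wt1 and Wt1os.

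Lrrn4, a membrane protein with leucine-rich repeats, had a promoter peak in 16 of 22 libraries, more than any other member. Its total signal was 39454, 73419 and 52689 in C, 20439, 48640 and 113985 in CC_s, 74029 and 23307 in CC_l, and 36071 and 33175 in CCC. H had no peak, and in HH only HH 2 had one, of 23773. The weight-loss libraries held 204679 and 20228 in HC 1 and HC 2, none in HC 3, and 111271, 152078 and 10031 in HHC. The peak was thus present in 10 of 10 control, 1 of 6 obese and 5 of 6 weight-loss libraries. It covered the start itself in 5 libraries. In 10 libraries the summit lay 1106 to 1299 bp inside the gene, downstream of the promoter sequence shown above. In CC_s 3, HC 1, CC_l 1, HHC 1 and HHC 2, which include the highest totals, the peak was a broad block whose summit lay 7016 to 11009 bp inside the gene. Within 500 bp of a start a peak lay in 9 libraries for Lrrn4 and in 12 for Wt1, which has 3 annotated starts. Peaks covered a start in 5 and 12 libraries.

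Both the Lrrn4 and the Wt1 promoter had a peak in 12 libraries, Lrrn4 alone in 4, Wt1 alone in 2 and neither in 4. The 4 libraries with neither were H 1, H 2, H 3 and HH 3. Over the 8 members, promoter peaks were present in 30 of 80 combinations in control (37.5%), 5 of 48 in obese (10.4%) and 21 of 48 in weight-loss libraries (43.8%). HC 3 and HHC 3 supplied 9 of the 21, and without them the weight-loss share was 12 of 32 (37.5%), with 2 to 4 members per library. Per library the members with a peak numbered 1 to 5 in controls, 0 to 2 in obese and 2 to 6 in weight-loss libraries, so the ranges overlap. The share over all protein-coding genes was 60.1 to 63.4% in controls, 57.1 to 60.4% in obese and 56.7 to 61.3% in weight-loss libraries. Presence of a peak is given as a description, with no test. How many genes with peaks of like height split between the states in this way was not counted.

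The keratins had few or weak promoter peaks. Krt19, a keratin of simple epithelia, had a promoter peak in C 1, H 2 and HHC 3, with total signals of 36211, 19795 and 9846 and heights of 0.307, 0.404 and 1.00 times the library's median maximum. The region was chr11:100143662-100148561 over the first part of the gene. Most other peaks of the locus lay near the start of Krt15, a keratin of stratified epithelia 10.2 kb downstream, where 19 of 22 libraries had a peak, or at the far upstream edge of the locus, where all 22 had one.

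Krt8 had a promoter peak in 13 of 22 libraries, 7 of 10 control, 2 of 6 obese and 4 of 6 weight-loss libraries. Its height was 0.609 to 1.05 times the library's median maximum, with a median of 0.742. Only 2 of these peaks covered the start. In 11 libraries the summit lay 1280 to 1460 bp inside the gene, within chr15:102001890-102005023. Krt18, its partner in the same filament, had no peak in its window. The tallest peak of its locus lay between the genes, at -11.1 to -9.88 kb from the start, in 7 libraries (C 2, CC_s 1, CC_s 2, CC_s 3, HC 3, CC_l 1 and CCC 2). CC_l 1 had a second one with its summit at -3555 bp, and the other 15 libraries, among them the 6 obese ones, had no peak in the locus. The mean cover of the Krt18 locus was 2.00% of its bases, and 22.7% of all genes had a lower one.

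**Figure D2:**
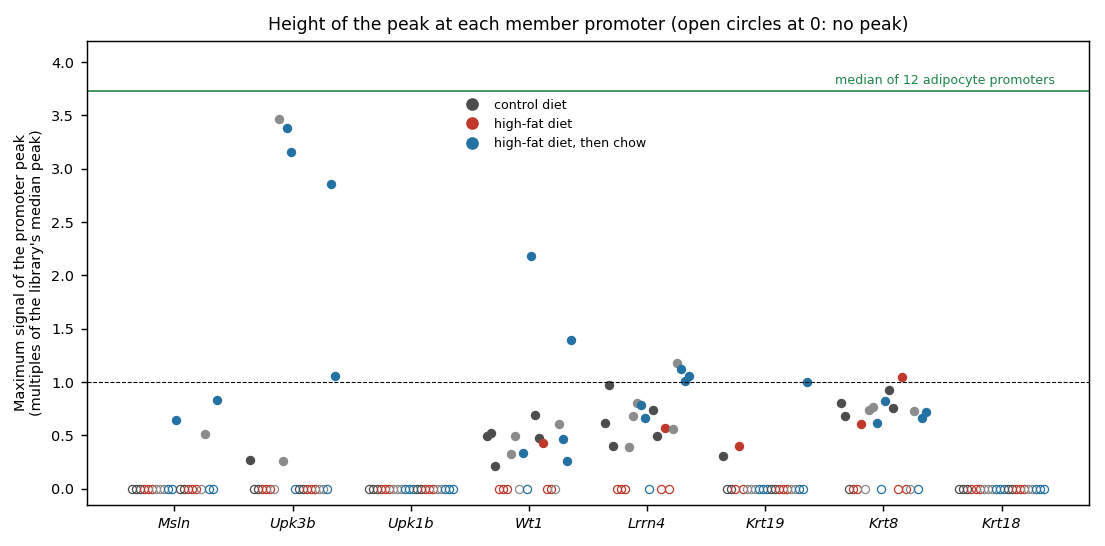
Height of the promoter peak of each member in the 22 libraries, as multiples of the library's median peak maximum (black and grey, control; red, obese; blue, weight loss). Open circles at 0 are libraries without a peak, the dashed line is the median peak, and the green line is the median of 12 adipocyte promoters, 3.73. Most filled circles lie below the dashed line, and those above it at Wt1 are HC 3 and HHC 3.

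Where a member promoter had a peak, it was low for 5 of the 6 members with one, with a median height of 0.404 (Krt19) to 0.742 (Krt8) times the library's median maximum. Upk3b differed, with a median of 2.86 times over 7 libraries, up to 3.47 times in CC_s 2. Its 4 highest values come from the broad blocks described above, whose summits lie in Dtx2. The median height over all members over 56 combinations was 0.685 times the library's median maximum, against 3.73 times at the adipocyte promoters (264 combinations) and 1.98 times at all promoters with a peak. Of the members' peaks, 12 of 56 (21.4%) stood above their library's median, 5 of them at Upk3b, against 83.1% of promoter peaks of all genes. Under the 10000 strongest peaks of each library, the share of members with a promoter peak was 5.68%, that of all genes 30.3% and that of the adipocyte list 99.2%.

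The 8 loci differed in how much of their length was covered. The mean over libraries ranged from 2.00% at Krt18 to 54.4% at Upk3b, with 3.58% at Upk1b, 7.32% at Msln, 7.60% at Krt19, 8.18% at Wt1, 22.6% at Krt8 and 42.7% at Lrrn4. The median over the members was 7.89%, against 11.4% over all protein-coding genes and 77.5% over the adipocyte list. Of 465 peaks counted over the loci, with those of shared regions counted for each locus, 65 lay at the member's own promoter, 110 only at the promoter of another protein-coding gene and 290 at neither.

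Marker genes of other cells gave a measure of such levels in these nuclei. The other 14 mesothelial genes on the list had a promoter peak in 26.9% of combinations. Gata6, a transcription factor shared with other tissues, and Cldn15, a claudin, had one in all 22 libraries. Tbx18 had one in 17 libraries, among them 1 H and 3 HH libraries. Nkain4 had one in 11 and Slpi in 4, and these 2 genes had none in H and HH. Bnc1, Gpm6a and Krt7 had none, Pkhd1l1 had one in 2 libraries, and Muc16, Rspo1, Calb2, Pdpn and Aldh1a2 had one in 1 library each. Peaks were present in 59.1% of combinations for stromal progenitor genes, 32.2% for macrophage genes, 22.7% for lymphocyte genes, 15.3% for endothelial genes and 15.3% for genes of the epididymal epithelium. Other uroplakin and keratin genes had one in 31.8%. By state, in control, obese and weight-loss libraries, the share was 29.3, 20.2 and 29.8% for the other mesothelial genes, 26.2, 16.7 and 22.9% for lymphocyte genes and 18.8, 14.6 and 10.4% for the epididymal epithelium. It was 27.5, 33.3 and 38.9% for macrophage genes, 8.75, 22.9 and 18.8% for endothelial genes, 56.2, 56.2 and 66.7% for progenitor genes, and 34, 35 and 25% for the other uroplakin and keratin genes. The lower share in obese than in control libraries was thus seen in the other mesothelial, lymphocyte and epididymal lists too. It was not seen in the macrophage, progenitor or related uroplakin and keratin lists. Nor was it in the endothelial list, but there HH 1 alone held 8 of the 11 obese peaks. After weight loss, HC 3 and HHC 3 held 2 and 4 of the 9 endothelial and 7 and 6 of the 28 macrophage peaks. They held 5 and 6 of the 25 other mesothelial peaks, and 2 and 0 of the 15 peaks at other uroplakin and keratin genes. The members' 31.8% lay within the range of these lists. The levels of the members in true mesothelial nuclei were not measured here. Fewer open nuclei of another type and less open chromatin per nucleus cannot be told apart in such bulk libraries.

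**Figure D3:**
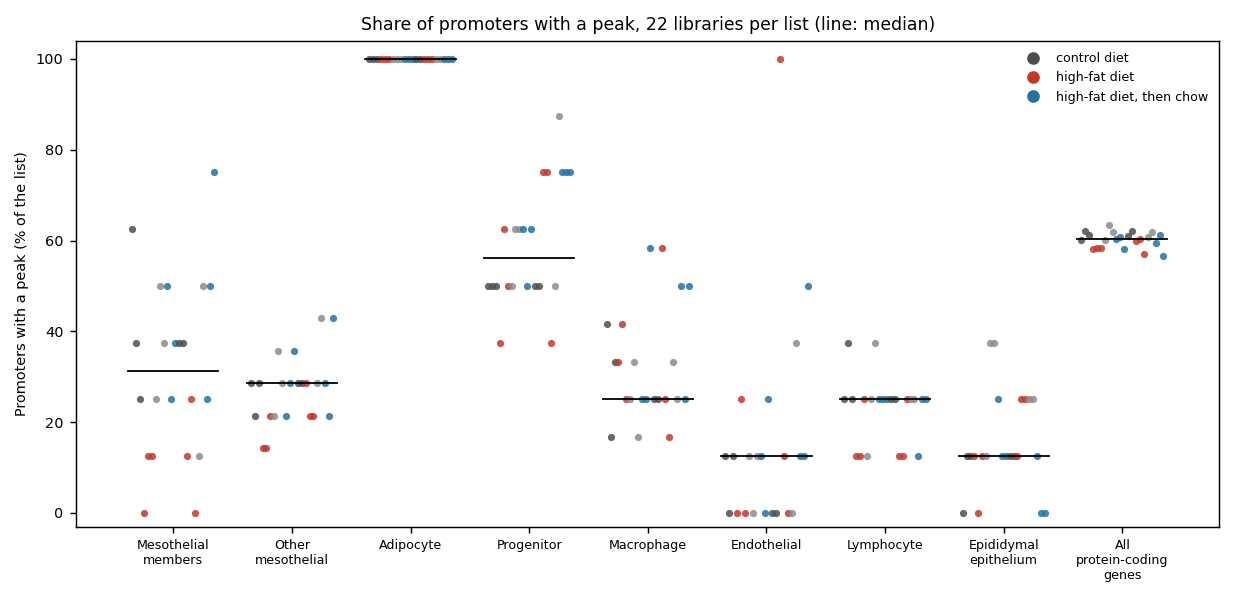
Share of the promoters of each gene list that held a peak (vertical axis, % of the list) in each of the 22 libraries, with the lists along the horizontal axis and the median as a black line (black and grey, control; red, obese; blue, weight loss). The adipocyte list is at 100% in every library, and the 8 mesothelial members lie at a median below that of all protein-coding genes.

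Signal was then compared between groups of the same age. In each library the 30083 regions of highest total signal kept their rank and took the mean log2 total signal of that rank over all libraries, and other regions were set to the last value, a floor of 14.01. For promoters the same was done with the 12439 highest, with a floor of 14.30. Regions were called where the p adjusted over all of them was below 0.05 and the log2 difference beyond 1. A promoter was called, after the study's rule, at an unadjusted p below 0.01 and the same difference, with the adjusted p given beside it.

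In H against C, 12 of the 32 locus regions were tested and 2 were called. The background was 8.28% of 30840 regions tested, 4.93% higher and 3.36% lower in H. The median difference was -0.30 over the 12 locus regions and -0.05 over all regions tested. The region that was higher in H lies in the Upk1b locus at chr16:38760099-38765361, within B4galt4, with its summit in an intron. The summit was 37.8 kb downstream of the Upk1b start and 1770 bp downstream of the nearest annotated start of B4galt4. The sequence around this summit is shown because it is the only place in the 8 loci where signal was called higher in obese libraries. The capitals mark matches as above.
Summit window, chr16:38762425-38762724, plus strand: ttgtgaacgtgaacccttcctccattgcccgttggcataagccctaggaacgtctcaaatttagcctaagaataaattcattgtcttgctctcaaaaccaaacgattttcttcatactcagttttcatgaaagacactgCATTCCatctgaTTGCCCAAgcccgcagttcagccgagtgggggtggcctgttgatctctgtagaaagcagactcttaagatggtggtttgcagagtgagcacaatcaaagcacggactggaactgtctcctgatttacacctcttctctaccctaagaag
It holds 1 TEAD and 1 C/EBP match, at -11 and 1 from the summit, and no AP-1 or GC box match. Over summit windows of all 104657 regions, 17.8% held GGAATG and 18.4% held TTGCNNAA.

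This region had no peak in C, CC_l and CCC. Its total signal was 52392, 56372 and 43325 in H and 32560, 38781 and 42303 in HH. It was 33864 and 34761 in HC 1 and HC 2, 18460 and 30836 in HHC 1 and HHC 2, and 0 in HC 3 and HHC 3, where no peak was listed. CC_s 1 and CC_s 3 had 13768 and 16476, close to the lowest total on their lists (13505 and 16252), and CC_s 2 had none. The rank-mapped level was 15.59 ± 0.31 in H (SD, n = 3) and at the floor in all 3 C libraries. The adjusted p was 0.0084 in limma's test, but the region entered the test only through the H libraries in which it is high, so this p is no independent support. Without C 2 it was 0.066, and the call was lost. No difference is given, because C was at the floor. The lowest totals listed in C were 19759, 13546 and 21098, all below those of the region in H. A weaker region next to it, chr16:38754787-38759115, had a peak in 2 H, 2 HH and 1 HHC libraries and in no other.

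In HH against CC_l the same region had the smallest p among 14 locus regions tested, but none was called (adjusted p = 0.21). The level was 15.36 ± 0.46 in HH (n = 3) and at the floor in CC_l (n = 2). The background was 0% of 33619 regions, and 4604 regions had an unadjusted p below 0.05, 4 of them in the loci. In a fit over all 22 libraries, added after the data had been seen, the mean of both obese contrasts called 2 of 18 locus regions, with a background of 3.13% of 49133 regions (1.83% higher and 1.30% lower). The B4galt4 region was higher at an adjusted p of 0.00082, and the Lrrn4 region described below was lower. All 10 control libraries were at the floor of the B4galt4 region, which again entered the fit only through libraries in which it is high, so this p too is no independent support. After weight loss the region showed levels of 14.58 ± 0.58 in HC and 14.41 ± 0.41 in HHC, and CC_s and CCC were at the floor. The mean of both weight-loss contrasts did not pass (unadjusted p = 0.045, adjusted p = 0.29), with 0 of 18 locus regions called and a background of 0.983%. Without HC 3 and HHC 3, which had no peak there, the adjusted p was 0.077, with the same limit, and 0 of 17 were called (background 0.891%).

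The region that was lower in H spans chr2:132843750-132882225, from Crls1, the gene of cardiolipin synthase, through the body of Lrrn4 to its promoter. Its total signal was 293923, 343268 and 461239 in C and 59522, 76816 and 90258 in H, and the groups did not overlap. The rank-mapped level was 17.82 ± 0.07 in C and 16.18 ± 0.26 in H (SD, n = 3 each), a log2 difference of -1.64 ± 0.16 (SE) at an adjusted p of 0.0037. With only the 10000 strongest peaks of each library it was -0.42 (adjusted p = 0.13), and the call was lost. In HH against CC_l the difference was -0.64 (adjusted p = 0.40), with levels of 16.96 ± 0.47 (n = 3) and 17.60 ± 0.08 (n = 2). HC reached 17.62 ± 0.67 and CC_s 17.51 ± 0.12, and HHC reached 17.84 ± 0.72 and CCC 17.77 ± 0.23. In the weight-loss groups HC 3 (16.85) and HHC 3 (17.02) were the lowest libraries. Over both durations the obese contrast was -1.14 (adjusted p = 0.0083). With the replicate block it was -0.97 (adjusted p = 0.012), under the limit of 1, so the call was lost.

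Signal of this region came from both genes. The tallest peak lay within 500 bp of the Crls1 start in 21 of 22 libraries, and peaks at the Crls1 promoter held 32.9 to 77.0% of the region's total signal, with a median of 48.9%. Peaks that reach the Lrrn4 promoter held 0% in H 1, H 2 and H 3, 11.4 to 21.4% in C and up to 50.9% in HC 1, and the rest lay elsewhere in the region. The peaks covered 22954 to 26867 bp of the region in C and 6051 to 7889 bp in H. The promoter windows of Crls1 as a gene differed by -1.06 ± 0.32 between H and C at an unadjusted p of 0.015 (adjusted p = 0.14), which misses the rule for a call. The Lrrn4 window itself had a level of 15.11 ± 0.40 in C and was at the floor in all 3 H libraries (unadjusted p = 0.0098, adjusted p = 0.12). It entered the test only through the C libraries in which it is high, so this p is no independent support. The difference, set by the floor, was under the limit of 1. A second region of the locus, chr2:132891287-132908081, lies upstream of Lrrn4 and reaches the end of its neighbour Fermt1, with 0 of 32 peak summits inside that gene. It was lower in H by a log2 difference of -0.82 ± 0.15 (adjusted p = 0.014), under the limit of 1 for a call.

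**Figure D4:**
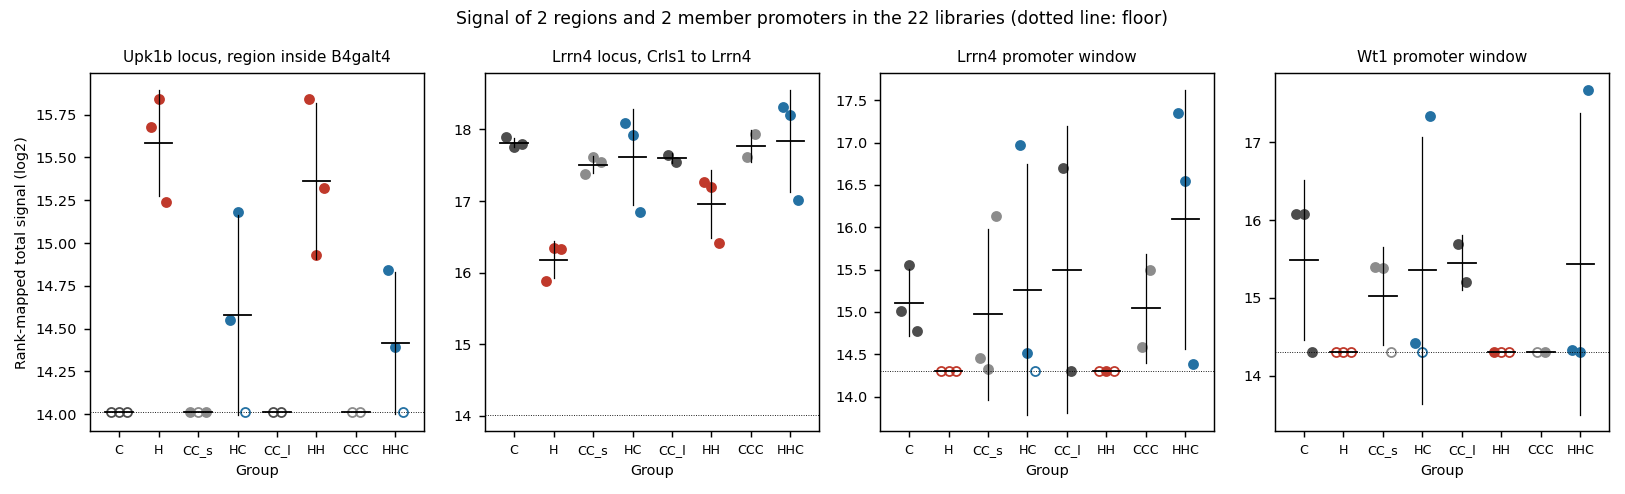
Rank-mapped log2 total signal (vertical axes, each with its own scale) of the B4galt4 region of the Upk1b locus, the Crls1 to Lrrn4 region, and the Lrrn4 and Wt1 promoter windows, by group. Circles are libraries, open where no peak was listed, black lines the mean and 1 SD, and dotted lines the floor. The H and HH circles lie above the floor in the first panel, and in the Lrrn4 and Wt1 promoter panels all of them lie on it.

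At the member promoters few members could be tested, since most were at the floor. In H against C only Lrrn4 was tested and none was called (background 4.01% of 12705 promoters). In HH against CC_l only Wt1 was tested, having entered through the CC_l libraries in which it is high, and it met the rule. Wt1 was at 15.45 ± 0.35 in CC_l (n = 2), and all 3 HH libraries were at the floor, HH 1 with a peak below it (unadjusted p = 0.0026, adjusted p = 0.28, background 1.79%). In CCC against CC_l, a comparison of controls of different age, Wt1 met the same rule, with both CCC libraries at the floor (unadjusted p = 0.0065, adjusted p = 0.58, background 1.19%). There too it entered only through the CC_l libraries, so neither p is independent support, and both comparisons share these libraries. Neither passed adjustment, and both were lost with the replicate block (unadjusted p = 0.017 and 0.011).

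After weight loss no member promoter was called with all libraries. In HC against CC_s, Wt1 differed by 0.33 ± 0.80 (-0.67 ± 0.37 without HC 3), Lrrn4 by 0.29 ± 0.79 and Upk3b by 1.85 ± 1.69 (adjusted p = 0.90, 0.90 and 0.77, background 1.36%). Without HC 3, Lrrn4 differed by 0.77 ± 0.85 and Upk3b by 3.53 ± 1.40 (adjusted p = 0.92 and 0.83). In HHC against CCC, Lrrn4 differed by 1.05 ± 0.91, and Wt1 and Upk3b were at the floor in both CCC libraries (adjusted p = 0.92 for each, background 0.865%). Without HHC 3, Lrrn4 differed by 1.90 ± 0.45 and met the rule (adjusted p = 0.71, background 1.27%). Over both durations, 0 of 5 members tested were called in the obese contrast (background 2.51%), where Wt1 and Lrrn4 were at the floor in all 6 obese libraries (adjusted p = 0.40 and 0.46). The spread of Wt1 in this fit rests on HC 3 and HHC 3, and without them Wt1 met the rule (adjusted p = 0.032, background 3.05% of 14347 promoters), as did the region over its start (adjusted p = 0.048, background 3.95% of 46223 regions). Both entered the test only through groups in which they are high. In the weight-loss contrast, 0 of 5 were called (background 1.97%), with 0.73 ± 0.61 for Wt1, 0.67 ± 0.58 for Lrrn4, 1.68 ± 1.00 for Upk3b, 0.27 ± 0.17 for Krt8 and 0.00 ± 0.09 for Krt19. These values depend on HC 3 and HHC 3. In a fit without both, added after the data had been seen, Wt1 turned to -0.32 ± 0.32 (adjusted p = 0.80), and Krt8, whose 4 other weight-loss libraries are at the floor, was no longer tested. Lrrn4 was then at 1.34 ± 0.54 (adjusted p = 0.44), and Upk3b, at 2.87 ± 0.87, met the rule (unadjusted p = 0.0049, adjusted p = 0.26, background 1.25% of 14347 promoters). The high Upk3b values, in CC_s 2, HC 1, HC 2 and HHC 2, come from the broad blocks whose summits lie in Dtx2. CC_s 1, CC_s 3 and both CCC libraries were at the floor. The Upk3b call thus does not bear on the Upk3b start alone. Over all 22 libraries none of the 5 members had an unadjusted p below 0.05 in either contrast. The obese and the weight-loss effects did not differ between the short and the long duration at any member by an adjusted p below 0.05. In these contrasts 0 and 1 of all 14845 promoters were called at that adjusted p and a difference beyond 1. For regions it was 9 and 2 of 49133, so the absence of a call at the members says little about them.

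No locus region was called after weight loss. In HC against CC_s, 0 of 11 were called (background 0% of 29699), and the smallest p was at this region between Lrrn4 and Fermt1, chr2:132891287-132908081 (log2 difference 0.26, adjusted p = 0.56). In HHC against CCC, 0 of 11 were called (background 0% of 32736), and the smallest p was at the B4galt4 region (adjusted p = 0.80, with CCC at the floor). In limma's test 3563 and 2011 of all regions had an unadjusted p below 0.05 in these comparisons, and 0 of the locus regions did. This rests on HC 3 and HHC 3. Without HC 3 the Crls1 to Lrrn4 region differed by 0.49 ± 0.14 (unadjusted p = 0.0092, adjusted p = 0.14) in place of 0.11, and without HHC 3 by 0.48 ± 0.16 (unadjusted p = 0.028, adjusted p = 0.48) in place of 0.07. The B4galt4 region then had an unadjusted p of 0.0051 and 0.043 (adjusted p = 0.11 and 0.51), but its controls were at the floor and it entered only through the weight-loss libraries in which it is high, so these are no independent support. None of these was called (background 0.244% and 0%). Between controls of different age, CC_s against C called 0 of 13 (background 0%) and 0 of 2 promoters (background 0.475%), and CCC against CC_l called 0 of 12 (background 0%).

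Other measures moved with the obese libraries, and their part in these results was not tested. The median peak maximum, divided by the lowest of its library, was 4.70 to 6.40 in H and 6.82 to 8.92 in C, and it was 3.75 to 6.20 in HH and 4.67 to 7.30 in CC_l. The 12 macrophage genes took 66.9 to 154 ppm of the library's peak signal in H and 167 to 314 ppm in C, with 3 to 5 and 2 to 5 of their promoters open. Fcgr1 had no promoter peak in any library, and Cd68 and Cd14 had one in all. The 12 adipocyte genes took 5382 to 6084 ppm in H and 4468 to 7213 ppm in C. The 8 endothelial promoters were all open in HH 1 and in at most 4 in any other library. The macrophage ranges of H and C did not overlap, with H lower, but HH (91.4 to 114 ppm) was not lower than CC_l (78.9 to 106 ppm). The other mesothelial genes took 30.4 to 82.5 ppm in H and 116 to 133 ppm in C, and 46.0 to 95.5 ppm in HH and 111 to 117 ppm in CC_l. The lymphocyte genes took 68.4 to 90.6 ppm in H and 100 to 330 ppm in C, and 29.7 to 87.4 ppm in HH and 121 to 280 ppm in CC_l. Both lists were lower in the obese group, without overlap, at both durations.

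By likeness over the 22 libraries, only the Lrrn4 promoter was above the floor in enough libraries (14) to be compared. The 2 genes whose rank-mapped promoter signal followed it most closely were Stat5a (Pearson r = 0.71) and Rbck1 (r = 0.70), out of 12460 genes, for which the 99th percentile of r was 0.50. The points share library quality and many values at the floor, so this is a description of the pattern only.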

How the data were processed

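ATAC-seq peaks were analysed for 22 libraries of labelled adipocyte nuclei, in 8 groups of 2 or 3 animals. After trimming and alignment to the mouse genome, the authors called peaks on each library with SEACR in stringent mode at a threshold of 0.01. The submitters' processing notes name Trim Galore 0.6.6, Bowtie2 2.4.4, SAMtools 1.13, bedtools 2.30, SEACR 1.3 and mm10, which is GRCm38. Each deposited peak has a total signal (coverage summed over its bases) and a maximum signal, with no normalization stated. Removal of peaks in problem regions is stated, but not whether it precedes these lists. Read counts are not in the lists, so count models were not used, and a region without a listed peak may still be open below the threshold.

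Genes and starts came from GENCODE vM21 (basic). A member locus took all peaks that overlap it by 1 bp or more, and peaks of all libraries were merged into union regions. Regions and promoters (2000 bp windows) were rank-mapped and compared with limma 3.58.1 (R 4.3.3, empirical Bayes moderation with an intensity trend), fitted to both groups of a comparison. Features had to exceed the floor in a number of libraries no lower than the size of the smaller group, with Benjamini-Hochberg adjustment over all of them. Python 3.11.15, pandas 2.3.3 and pysam 0.24.0 did the rest. In a simulated comparison of 3 libraries with 3, made from 23629 regions of C with 200 changed by 2 on the log2 scale, 79.5% were called, with 5 others.

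A further gene list is not reported here. The members, gene lists and tests were chosen with earlier results of these data known. Named regions are, for each member, that of highest mean signal at its promoter, and, for each pair, those called or that of smallest p. Fermt1 and Crls1 were named after their values were seen. Replicate numbers are shared between groups, and deviations of same-numbered libraries from their group means correlated at -0.18 to 0.42, over 0.1 in 4 of 15 pairs. In CC_s against C all 3 pairs were over 0.1 (0.31 to 0.42), so these numbers were taken as paired, and the blocked fit called the same 0 members there. Alternatives were the maximum signal, median scaling, the 10000 strongest peaks, no filter, 1 fit per duration, a replicate block, leaving out each replicate, a flank of 5 kb and a window of 500 bp.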

Additional observations from a re-analysis of the deposited data

How the results depend on the processing

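Counts of called members stayed within 1.5 times, or the share of member promoters with a peak within 1 SD, in 94 of 114 alternatives. The same held in 165 of 174 that leave out a replicate. This SD, between libraries, is wide, so the shares with the 500 bp window and over the start were scored as kept. Most of the counts were 0 with the main settings, and a count that stayed 0 was scored as kept too. In H against C the loci held 1 called region instead of 2 with a flank of 5 kb or the 10000 strongest peaks, and 1 to 3 when a replicate was left out. Without C 2, 147 regions were called in all instead of 2555, and the B4galt4 region no longer passed (adjusted p = 0.066). Without a filter 1224 were called in all, under median scaling 3966 and with the 10000 strongest peaks 327. With the 10000 strongest peaks the Lrrn4 region no longer passed (log2 difference -0.42). In the obese contrast over both durations, added after the data had been seen, the replicate block and the maximum signal each left 1 region, the B4galt4 one, and the 10000 strongest peaks 0; leaving out any of the 22 libraries kept 2. Among promoters, H against C called 0, but 1 under median scaling and 0 to 1 without a replicate. The Wt1 call in HH against CC_l fell to 0 with all libraries of the duration, the replicate block, the maximum signal, the 10000 strongest peaks or the 500 bp window, and ranged from 0 to 2 without a replicate. That in CCC against CC_l fell to 0 under these 5 and under median scaling, and ranged from 0 to 1. HHC against CCC and the weight-loss contrast over both durations ranged from 0 to 1, with the 1 seen without HHC 3 and without HC 3. Without both, also added after the data had been seen, the obese contrast called 1 of 4 promoters tested (Wt1, background 3.05%) and 3 of 17 regions (3.95%) and the weight-loss contrast 1 of 4 promoters (Upk3b, 1.25%). In these cases the cause was not tested. The share of member promoters with a peak was 29.8 to 33.3% without a replicate, 19.9% with the 500 bp window, 14.8% where the peak covers the start and 5.68% with the 10000 strongest peaks. The replicate block changed no other call. Depth is unknown, so a closed promoter means only that no peak was listed.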
